A study of Homo sapiens with 6 samples.

Results

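The genes described here encode inhibitors of cyclin-dependent kinases (CDKs). The 8 members are CDKN1A, CDKN1B and CDKN1C of the CIP/KIP family, CDKN2A, CDKN2B, CDKN2C and CDKN2D of the INK4 family, and CDKN3, a phosphatase. They were chosen by symbol from the array's platform annotation, out of 19775 genes in all. Of the 8 genes, 7 had a probe set with their symbol and together these had 16 probe sets, none of which listed a second gene. CDKN2C had none under that symbol and was not analysed here. Probe sets are groups of short probes on the array that are read as 1 value. The cells were MCF10A, a non-tumorigenic line of human mammary epithelium, transfected either with miR-221/222 (the mimic) or with miR-control (the control). Each group had 3 biological replicates and each replicate 1 array of biotin-labelled total RNA. All 6 arrays come from the same line, so they describe 1 genetic background. Neither the dose nor the hours after transfection nor the sequence of the control are stated in the labels.

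CDKs drive the cell cycle when bound to a cyclin, and these inhibitors hold them back. The CIP/KIP proteins p21, p27 and p57 bind a range of cyclin and CDK pairs, above all those of CDK2, whereas the INK4 proteins bind CDK4 and CDK6 and keep D-type cyclins away from them. CDKN3 stands apart: its protein removes an activating phosphate from CDK2 and CDK1, and its messenger RNA is abundant in dividing cells. MicroRNAs pair with messenger RNAs through their seed, a short stretch near their 5′ end, and lower the level or the translation of the RNA they bind. CDKN1B and CDKN1C are reported targets of miR-221 and miR-222, and the comparison asks what happened to them and their relatives when those microRNAs were raised.

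The mature strands are shown because their shared seed (bases 2 to 8, in capitals) sets which sites both can pair with. RefSeq places both genes on the minus strand of chromosome X (GRCh38.p14). The labels do not state which strands were transfected.
hsa-miR-221-3p, chrX:45746180-45746202: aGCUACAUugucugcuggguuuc
hsa-miR-222-3p, chrX:45747036-45747056: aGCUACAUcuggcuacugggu
The first 8 bases of both are identical, and the other bases differ in places. Among the 2370 mature microRNA names in the table, these 2 were the only ones with this seed. A messenger RNA site that pairs with all of it reads AUGUAGC. No 3′ end of a messenger RNA was searched for it here.

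CDKN1B fell and CDKN1C rose, although both are reported targets; CDKN1A and CDKN2D rose, CDKN3 fell furthest, and CDKN2A and CDKN2B did not pass the test. By probe set, 6 of the 16 rose and 3 fell (limma, Benjamini-Hochberg adjusted p under 0.05 over all probe sets), while 24.8% of all 54613 probe sets passed, 11.6% higher and 13.1% lower. Reading each gene at its probe set with the highest mean signal, 3 of the 7 measured genes rose and 2 fell, against 30.4% of all genes, 14.1% higher and 16.3% lower. The groups did not overlap at 12 of the 16 probe sets and for 5 of the 7 genes, where 39.2% of all probe sets and 45.6% of all genes had no overlap. The median difference (mimic minus control, log2) was 0.09 over the 7 genes and 0.03 over all genes. With 7 genes these counts describe the members and carry no test of the group. Values are log2 intensities, on which 1 unit is a doubling of signal. Array medians lay between 7.59 and 7.66, and arrays correlated with r of 0.9953 to 0.998 within groups and 0.9821 to 0.9858 between groups, across probe sets, which are not independent replicates. In RNA from whole cultures, fewer cells with a transcript and less transcript per cell cannot be told apart.

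**Figure D1:**
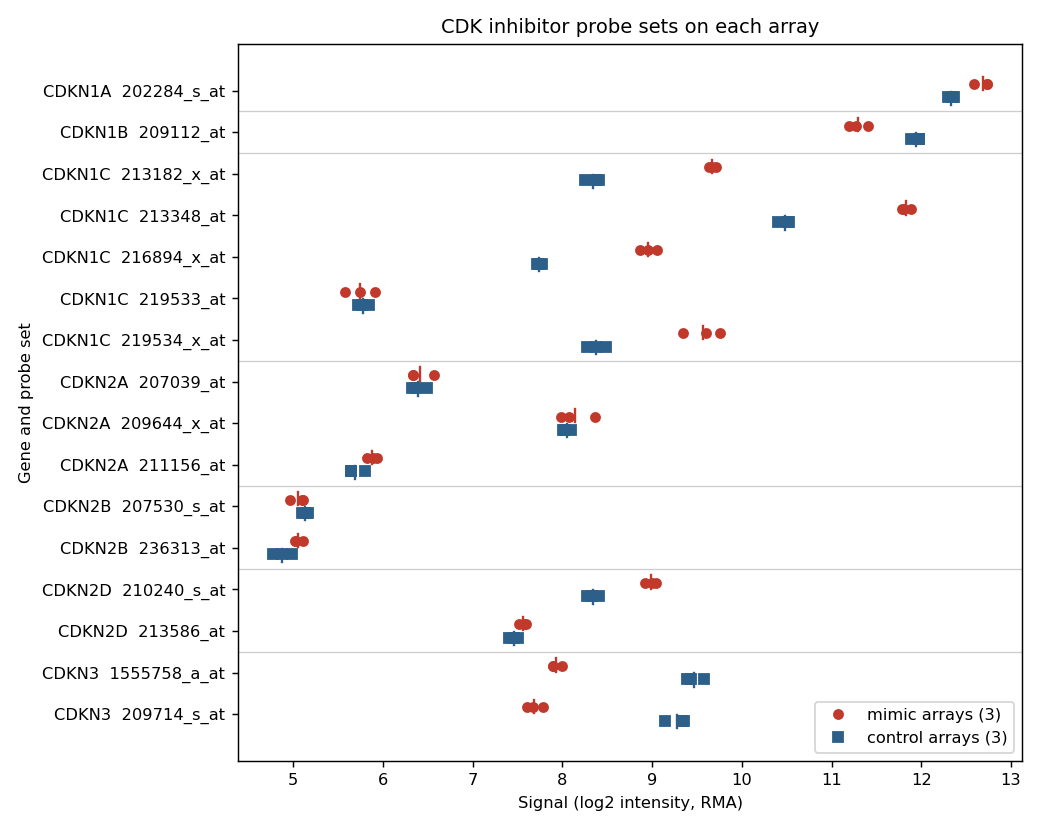
Signal (log2 intensity, horizontal axis) of the 16 CDK inhibitor probe sets on each array; circles are the 3 mimic arrays, squares the 3 control arrays and short vertical lines the group means. The circles lie to the right of the squares for CDKN1A and at 4 of the 5 CDKN1C probe sets, and to the left for CDKN1B and at both CDKN3 probe sets.

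CDKN1B encodes p27, which blocks CDK2 with cyclin E or A and is abundant in resting epithelium. Its only probe set, 209112_at, read 11.20, 11.27 and 11.41 on the mimic arrays and 11.98, 11.97 and 11.88 on the control arrays. The highest mimic array lay below the lowest control array. CDKN1B averaged 11.29 ± 0.11 with the mimic and 11.94 ± 0.05 with the control (SD, n = 3 each). It fell by 0.65 on the log2 scale, with a standard error (SE) of 0.07 and a 95% confidence interval from -0.81 to -0.50 (limma adjusted p = 4.3e-05), or 1.57-fold. The size of this change exceeded that of 94.5% of all probe sets. Over 16 other settings the difference ran from -0.71 to -0.57. Some of these settings, such as the stricter thresholds and the averaging of a single probe set, cannot move it.

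CDKN1C encodes p57, the least widely expressed CIP/KIP protein and the product of an imprinted gene read from the maternal chromosome. At the brightest of its 5 probe sets, 213348_at, the mimic arrays read 11.78, 11.89 and 11.81 and the control arrays 10.53, 10.51 and 10.40. Every mimic array was more than a full log2 unit above every control array. The means were 11.82 ± 0.06 with the mimic and 10.48 ± 0.07 with the control (SD, n = 3 each), and CDKN1C rose by 1.34 ± 0.07 (SE) on the log2 scale, 2.54-fold (limma adjusted p = 8.3e-08). The 95% confidence interval ran from 1.20 to 1.49, and 99.0% of all probe sets changed by less.

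Not all of the other CDKN1C probe sets showed that rise. Probe set 213182_x_at averaged 9.67 ± 0.04 with the mimic and 8.35 ± 0.08 with the control (SD, n = 3 each), a difference of 1.32. At 216894_x_at the means were 8.96 ± 0.09 with the mimic and 7.74 ± 0.03 with the control (SD, n = 3 each), a difference of 1.21. At 219534_x_at they were 9.57 ± 0.21 with the mimic and 8.37 ± 0.11 with the control (SD, n = 3 each), a difference of 1.20. All 3 passed, the weakest with a limma adjusted p of 6.6e-06; the suffix x_at marks probe sets that can bind several transcripts. The fifth, 219533_at, read 5.75, 5.91 and 5.58 on the mimic arrays and 5.72, 5.84 and 5.77 on the control arrays, and the groups overlapped. Its difference was -0.03 with a 95% confidence interval from -0.22 to 0.16 (limma adjusted p = 0.848). The signal of 219533_at was low, at the 14.9th percentile of probe sets. The platform annotation gives it the same transcript as 219534_x_at. With all 5 probe sets averaged, CDKN1C was still higher, by 1.01.

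CDKN1A encodes p21, the CIP/KIP protein that p53 induces after DNA damage. Its probe set, 202284_s_at, read 12.59, 12.73 and 12.73 on the mimic arrays and 12.34, 12.30 and 12.37 on the control arrays. The groups did not overlap, and the lowest mimic array, replicate 1, stood closest to the control. CDKN1A averaged 12.68 ± 0.08 with the mimic and 12.34 ± 0.03 with the control (SD, n = 3 each). The rise was 0.34 ± 0.06 (SE) on the log2 scale, 1.27-fold (95% confidence interval 0.20 to 0.49, limma adjusted p = 0.00205), and it does not reach a 1.5-fold minimum. The CIP/KIP genes thus had differences of 0.34 for CDKN1A, -0.65 for CDKN1B and 1.34 for CDKN1C, with confidence intervals that do not overlap.

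Among the INK4 genes, only CDKN2D passed the test. CDKN2D encodes p19, which binds CDK4 and CDK6. At probe set 210240_s_at the mimic arrays read 8.92, 9.04 and 9.0 and the control arrays 8.33, 8.27 and 8.41, with no overlap. The means were 8.98 ± 0.06 with the mimic and 8.34 ± 0.07 with the control (SD, n = 3 each), a rise of 0.65 ± 0.07 (SE), 1.57-fold (limma adjusted p = 2.5e-05). Its other probe set, 213586_at, read 7.52, 7.57 and 7.60 on the mimic arrays and 7.46, 7.41 and 7.51 on the control arrays. These groups did not overlap either, but the difference, 0.10 with a confidence interval from -0.03 to 0.24, did not pass (limma adjusted p = 0.271). With both averaged the difference was 0.37.

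CDKN2A and CDKN2B lie next to each other on chromosome 9, and MCF10A cells are known for a homozygous deletion that takes in both. CDKN2A encodes p16 and, in another reading frame, the p53 activator ARF; CDKN2B encodes p15, which transforming growth factor beta induces in epithelium. At the CDKN2B probe set 207530_s_at the mimic arrays read 5.11, 5.10 and 4.96 and the control arrays 5.10, 5.17 and 5.14, and the groups overlapped. At 236313_at the mimic arrays read 5.02, 5.11 and 5.03 and the control arrays 4.78, 4.99 and 4.87, without overlap. These were low signals: the array minima were 3.67 to 3.72, and the signal at 207530_s_at lay at the 8.15th percentile of probe sets. The differences were -0.08 (limma adjusted p = 0.413) and 0.18 (limma adjusted p = 0.0991).

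The CDKN2A probe set 207039_at averaged 6.41 ± 0.14 with the mimic and 6.39 ± 0.09 with the control (SD, n = 3 each), and 211156_at 5.88 ± 0.05 with the mimic and 5.69 ± 0.09 with the control (SD, n = 3 each). The third, 209644_x_at, read 8.36, 8.07 and 7.98 on the mimic arrays and 8.01, 8.10 and 8.03 on the control arrays. Its groups overlapped, and mimic replicate 1 was its highest array. Its signal lay at the 60.4th percentile of probe sets, and the suffix x_at marks probe sets that can bind several transcripts. The 3 differences, from 0.02 to 0.19, had adjusted p-values (limma) from 0.071 to 0.897. No detection calls were used, so whether any of the CDKN2A and CDKN2B signals lies above background is not known.

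Genes beside them on chromosome 9 were read from a list of 7. MTAP, an enzyme of methionine salvage, had 6 probe sets, of which 0 passed. The brightest, 211364_at, averaged 8.10 ± 0.01 with the mimic and 8.08 ± 0.10 with the control, and the dimmest, 204956_at, 4.65 ± 0.12 with the mimic and 4.64 ± 0.10 with the control (SD, n = 3 each). CDKN2B-AS1, the antisense transcript of the region, averaged 5.65 ± 0.07 with the mimic and 5.57 ± 0.07 with the control (SD, n = 3 each). DMRTA1, ELAVL2 and MLLT3 did not pass either. The rises were those of KLHL9, an adaptor of a ubiquitin ligase, by 0.37 at the probe set used and by 0.21 or more at all 4, and of FOCAD, by 0.44 on 1 of its 2. The list's median difference was 0.07.

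CDKN3 had the largest fall of the measured members. At probe set 1555758_a_at the mimic arrays read 7.90, 7.90 and 8.0 and the control arrays 9.39, 9.43 and 9.58. At 209714_s_at the mimic arrays read 7.78, 7.67 and 7.61 and the control arrays 9.36, 9.33 and 9.14. The groups were more than a log2 unit apart at both. The means at 1555758_a_at were 7.93 ± 0.06 with the mimic and 9.46 ± 0.10 with the control (SD, n = 3 each). There CDKN3 fell by 1.53 ± 0.07 (SE), or 2.90-fold (limma adjusted p = 5.5e-08), and at 209714_s_at it fell by 1.59 ± 0.08 (SE), or 3.01-fold (limma adjusted p = 8.8e-08). The size of either change exceeded that of 99.3% of all probe sets.

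**Figure D2:**
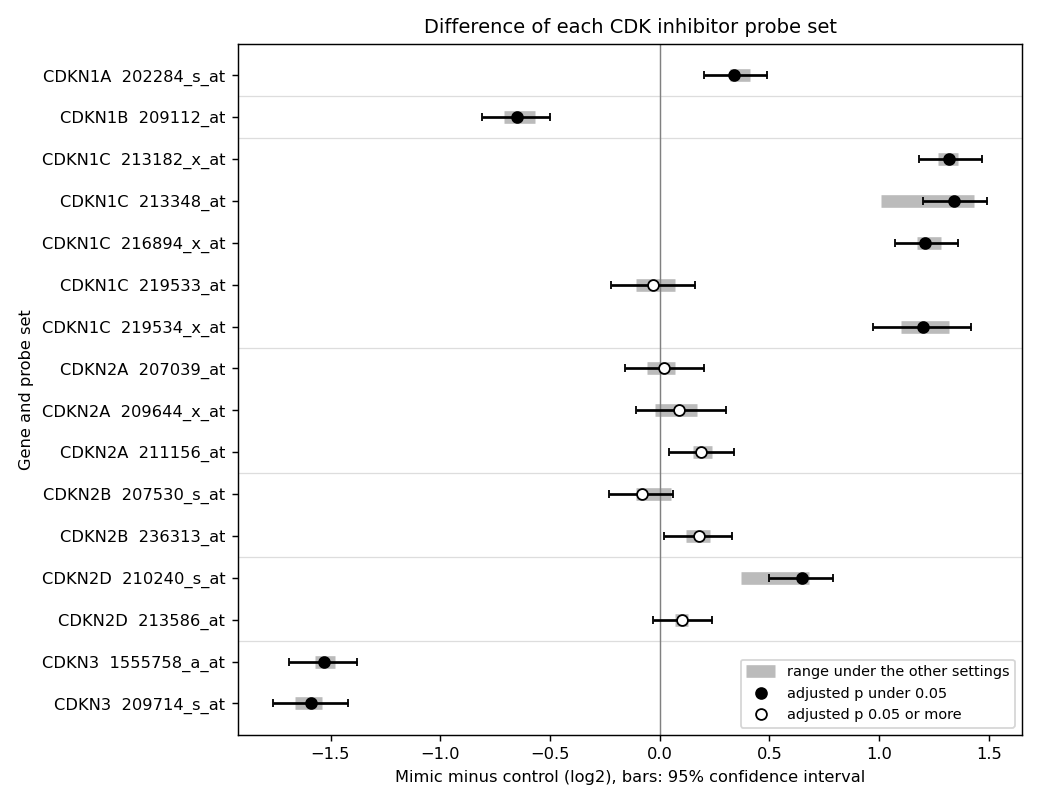
Difference between mimic and control (log2, horizontal axis) of each CDK inhibitor probe set; points are limma estimates, thin bars 95% confidence intervals and grey bands the range under the other settings, filled where the adjusted p is under 0.05. CDKN1C stands between 1.20 and 1.34 at 4 probe sets and at -0.03 at the fifth, and CDKN3 at -1.53 and -1.59.

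Genes of dividing cells moved the same way as CDKN3. Of 16 listed genes of dividing cells, 16 fell, with a median difference of -1.06, against 16.3% of all genes. The list was chosen with earlier results of these data known. The DNA topoisomerase gene TOP2A had a difference of -3.15, the ribonucleotide reductase gene RRM2 one of -2.57, and the mitotic kinase gene AURKA one of -2.19. The mean signal of the 16 genes was 8.48 to 8.62 on the mimic arrays and 9.81 to 9.89 on the control arrays. Their part in the CDKN3 value, or in that of the other inhibitors, was not tested.

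The promoter of CDKN3 is shown because genes that are switched on in dividing cells often carry a CHR element (TTTGAA) near a CCAAT box. RefSeq windows were found for 7 of the 8 members. The 250 bases before the annotated start were searched on both strands, and capitals mark every CHR and CCAAT match, whichever strand it reads on. CDKN1B, the other member that fell, is set beside it.
CDKN3, chr14:54396757-54397006, plus strand, GRCh38.p14: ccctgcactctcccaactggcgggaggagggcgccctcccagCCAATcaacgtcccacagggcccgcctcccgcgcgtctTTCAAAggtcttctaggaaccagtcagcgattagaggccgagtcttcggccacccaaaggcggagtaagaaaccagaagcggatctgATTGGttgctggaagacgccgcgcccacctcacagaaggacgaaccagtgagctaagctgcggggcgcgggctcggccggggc
CDKN1B, chr12:12717118-12717367, plus strand, GRCh38.p14: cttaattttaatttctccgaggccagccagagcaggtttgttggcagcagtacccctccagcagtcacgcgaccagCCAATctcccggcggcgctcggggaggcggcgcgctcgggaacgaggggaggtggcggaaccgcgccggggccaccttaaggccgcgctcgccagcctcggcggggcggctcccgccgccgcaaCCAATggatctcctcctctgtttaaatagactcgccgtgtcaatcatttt
CDKN3 held 1 CHR match, on the other strand (TTCAAA), and 2 CCAAT matches, while CDKN1B held 0 and 2. Among all 35116 windows, 13.3% held TTTGAA and 32% held CCAAT on either strand, so neither is rare. None of the other members' windows held TTTGAA. The forkhead letters GTAAACA (2.98% of windows) and the E2F letters TTTGGCGC, TTTCGCGC and TTTCCCGC (0.55%, 0.439% and 1.39%) were in none of the members' windows. The SP1 letters GGGCGG (42.6% of windows) occurred before every member searched except CDKN3, 4 times before CDKN1A and once before CDKN1B. CCAAT also occurred before CDKN2C and before CDKN2D, which rose. These matches describe letters and not binding.

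The kinases and cyclins that the inhibitors act on fell: 11 of 12 were lower in the mimic and 0 higher, with a median difference of -1.64; of all genes, 16.3% were lower and 14.1% higher. CDK1, the mitotic kinase, fell by 2.81; CCNB2, a cyclin that binds it, fell by 2.32, and its relative CCNB1 fell by 2.27. CDK1 was lower on 3 of its 4 probe sets, CCNB2 on 1 of 3 and CCNB1 on 2 of 2. Among the INK4 targets, CDK6 read 8.56, 8.58 and 8.77 on the mimic arrays and 10.81, 10.71 and 10.70 on the control arrays, and CDK4 read 10.70, 10.83 and 10.82 on the mimic arrays and 11.37, 11.43 and 11.27 on the control arrays. Neither gene's groups overlapped. CDK6 fell by 2.11 and CDK4 fell by 0.57 (limma adjusted p = 9.0e-09 and 8.2e-05), on the same arrays on which CDKN2D rose. Of the 7 CDK6 probe sets 6 passed, with differences from -2.39 to -0.28. CDK2, the main CIP/KIP target, fell by 0.60. CCND1, the D-type cyclin gene that did not pass, had a difference of -0.15 ± 0.06 (SE) at the probe set used, while its other probe set was lower by 0.35.

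Downstream of these kinases stand the RB proteins, which hold back E2F transcription factors until they are phosphorylated. Of 13 such genes, 8 fell and 1 rose (median -0.27), against 16.3% and 14.1% of all genes. E2F8, a repressive E2F, fell by 1.19, RB1 fell by 0.73 and E2F2 fell by 0.67, the last on 1 of its 3 probe sets. E2F7, a close relative of E2F8, was not called at its brighter probe set (-0.05), but its other probe set fell by 1.93 (limma adjusted p = 8.8e-09), and the difference was -0.99 with both averaged. The rise was that of TFDP2, a partner of the E2F proteins, by 0.29, a call lost without control replicate 2 (limma adjusted p = 0.0584). E2F5 (-0.27) no longer passed without mimic replicate 1 or 2 or control replicate 1 or 3 (limma adjusted p from 0.0764 to 0.127), nor did E2F6 (-0.22) without mimic replicate 1 or 2 or any control replicate (0.0627 to 0.121). With probe sets averaged, the calls of E2F5 (-0.09, limma adjusted p = 0.338) and RBL1 (-0.15, limma adjusted p = 0.0723) were also lost.

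Of 8 other CDK regulators, 4 fell and 1 rose, against 16.3% and 14.1% of all genes. CDC25B, a phosphatase that activates CDKs, fell by 1.80, and its relative CDC25C fell by 0.91. MNAT1, an assembly factor of the CDK-activating kinase, rose by 0.93. CDC25A fell by 0.70 and WEE1, an inhibitory kinase, fell by 0.32. The WEE1 call was lost without mimic replicate 1 or 2 or control replicate 1 or 3 (limma adjusted p from 0.0579 to 0.0982).

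**Figure D3:**
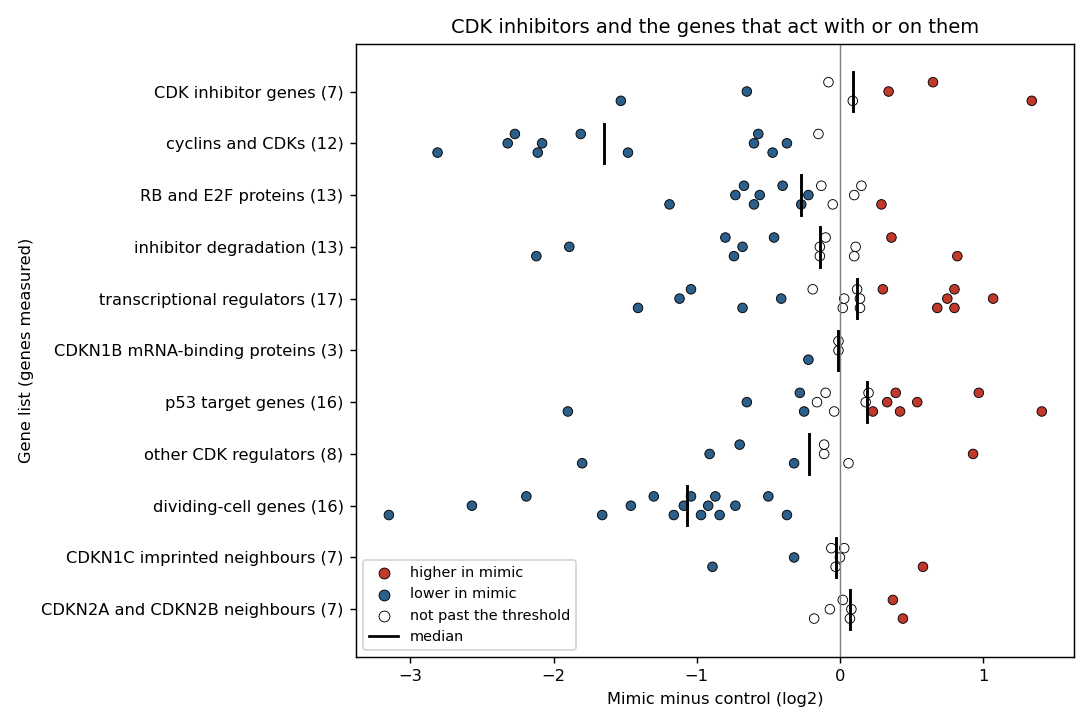
Difference between mimic and control (log2, horizontal axis) of the 7 measured CDK inhibitor genes (top row) and of the genes in 10 pathway lists, each at its brightest probe set; vertical bars are medians and open points did not pass. The inhibitors spread from -1.53 to 1.34, and cyclins and CDKs lie at or below -0.15.

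Proteins of the CIP/KIP family are removed through ubiquitin ligases, and 6 of 13 genes of that machinery fell while 2 rose (median -0.14), against 16.3% and 14.1% of all genes. SKP2, which recognises p27 for destruction, read 9.85, 9.80 and 9.95 on the mimic arrays and 10.69, 10.63 and 10.48 on the control arrays. CKS1B, its cofactor, read 10.57, 10.71 and 10.74 on the mimic arrays, against 11.53, 11.47 and 11.41 on the control arrays. Neither gene's groups overlapped, and the differences were -0.74 and -0.80 (limma adjusted p = 2.1e-05 and 7.2e-06). SKP2 was lower on all 3 of its probe sets. DTL, the receptor that directs p21 to the CUL4 ligase, fell by 2.12, and CDC20, an activator of the mitotic ubiquitin ligase, fell by 1.89. CUL4B rose by 0.82 at the probe set used and by 0.80 to 0.91 over all 4, and CUL4A, its relative, rose by 0.36 on 1 of 4, with a difference of 0.06 when all were averaged. The arrays measure RNA, and protein levels of the inhibitors were not measured here.

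Of 17 measured transcriptional regulators of the inhibitor genes, 6 rose and 5 fell (median 0.12), against 14.1% and 16.3% of all genes. FOXO factors switch on CDKN1B, and all 3 listed were higher: FOXO1 by 0.68, FOXO3 by 0.80 and FOXO4 by 0.30. FOXO1 read 11.46, 11.54 and 11.66 on the mimic arrays and 10.91, 10.92 and 10.81 on the control arrays, without overlap, on the same arrays on which CDKN1B fell. MYC, which represses CDKN1A and CDKN2B through ZBTB17, fell by 1.41, the largest change of this list. ETS1, an activator of CDKN2A, fell by 1.12, and CBX7, a Polycomb protein that silences the CDKN2A region, rose by 1.07. KLF4 and KLF6, activators of CDKN1A, rose by 0.80 and 0.75. The others that fell were HES1 (-1.04), a repressor in the Notch pathway, EZH2 (-0.68), the Polycomb methyltransferase, and ETS2 (-0.41), whose call was lost with its probe sets averaged (-0.08, limma adjusted p = 0.274).

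Proteins that bind the CDKN1B messenger RNA were read too, since pumilio proteins are reported to open it to these microRNAs. PUM2 had a difference of -0.01 and DND1, which shields messenger RNAs from microRNAs, one of -0.01; neither passed. ELAVL1, a stabilising protein, fell by 0.22, a call lost without either of mimic replicates 1 and 2 or control replicates 1 and 2 (limma adjusted p from 0.0554 to 0.0931). Of the p53 targets other than CDKN1A, 7 of 16 measured rose and 4 fell (median 0.19), against 14.1% and 16.3% of all genes. PLK2, a polo-like kinase, fell by 1.90, TP53I3, a quinone oxidoreductase, rose by 1.41, and SESN1, a stress-responsive regulator of growth signalling, rose by 0.97. The others that fell were MDM2 (-0.65), ZMAT3 (-0.28) and GDF15 (-0.25). MDM2 was lower on 4 of its 10 probe sets and not called on the other 6, with differences from -0.82 to 0.05. The GDF15 call was lost without control replicate 1 (limma adjusted p = 0.0654), under 2 other scalings, and with its probe sets averaged (-0.09, limma adjusted p = 0.2). FAS rose by 0.23, a call lost on leaving out mimic replicate 2 or 3 or any control replicate (limma adjusted p from 0.056 to 0.105), after median centring (0.0868) and with a replicate block (0.0538).

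**Figure D4:**
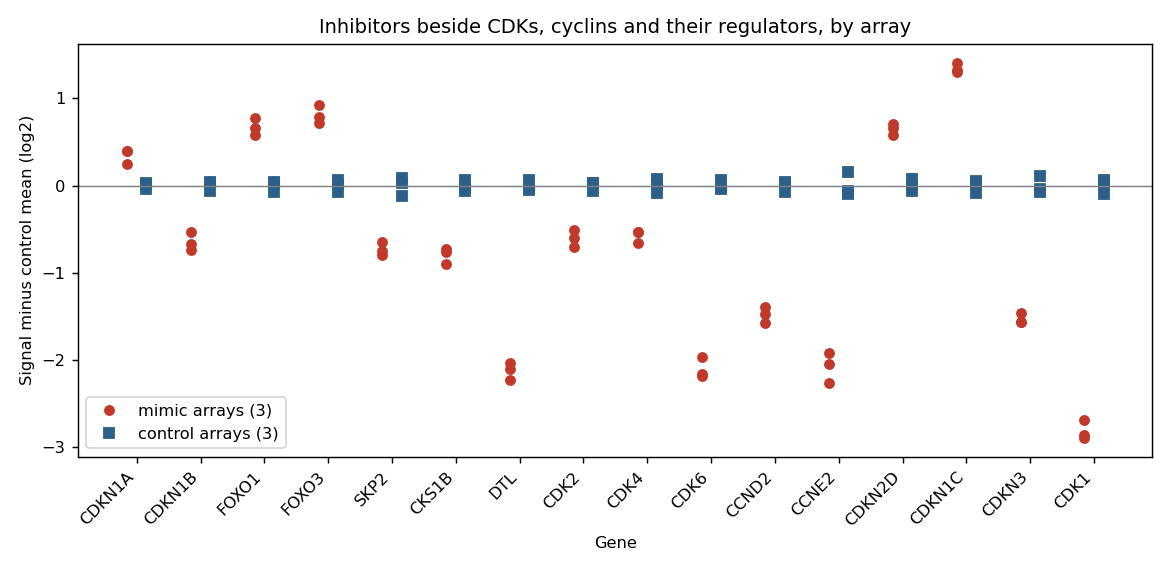
Signal of each array minus the gene's control mean (log2, vertical axis) for 5 inhibitor genes and 11 genes that act with or on them; circles are the 3 mimic arrays and squares the 3 control arrays. CDKN1A, CDKN1C, CDKN2D, FOXO1 and FOXO3 lie above the control arrays and the other genes below, CDK1 furthest.

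CDKN1C sits in an imprinted domain of chromosome 11, and 7 of its listed neighbours were measured. CARS1, which encodes a transfer RNA synthetase, rose by 0.58 at the probe set used, and by 0.52 and 0.39 at another 2 of its 4. PHLDA2, which like CDKN1C is read from the maternal copy, fell by 0.89 on 1 of its 3 probe sets, and CD81, a membrane tetraspanin, fell by 0.32. KCNQ1OT1, the noncoding RNA that silences the domain on the paternal copy, averaged 8.60 ± 0.02 with the mimic and 8.57 ± 0.01 with the control (SD, n = 3 each), and 0 of its 5 probe sets passed. The median difference of these neighbours was -0.03.

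Genes outside the family were ranked by how closely their pattern over the 6 arrays followed each inhibitor, as the root-mean-square distance between log2 values centred on their own means. This is a description, and a distance over 2 groups of arrays is set mostly by the size of the difference between them. Nearest to CDKN1B were STC2, which encodes a secreted glycoprotein (distance 0.0181), and CTBP2, a transcriptional corepressor (0.0219). Nearest to CDKN1C were RGS2, a regulator of G-protein signalling (0.0427), and TOX2 (0.0436). For CDKN1A these were the pseudogene OR7E156P (0.0149) and ZNF575 (0.0195), and for CDKN2D SPRYD3 (0.0318) and SLC7A6, an amino acid transporter (0.0326). CDKN3 lay nearest to PLAU, the urokinase gene (0.0380), and to CCND2, a D-type cyclin (0.0575).

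The labelled cell type was checked on 7 measured markers of mammary epithelium, among them KRT5, KRT14 and CDH1. Their mean signal was 11.10 to 11.21 on the mimic and 12.26 to 12.31 on the control arrays. Of the 7, 6 fell, against 16.3% of all genes. Of 6 fibroblast markers 1 rose (DCN) and 1 fell (LUM), of 4 endothelial markers 1 fell (KDR), and of 3 measured blood markers 1 fell (CD14). The mean signal of the fibroblast markers was 8.36 to 8.52 on the mimic and 8.32 to 8.36 on the control arrays. That mean hides a wide spread. DCN averaged 13.72 ± 0.05 with the mimic and 12.06 ± 0.07 with the control (SD, n = 3 each), and rose on 6 of its 7 probe sets. LUM averaged 4.09 ± 0.09 with the mimic and 5.15 ± 0.07 with the control (SD, n = 3 each). That signal was low, at the 4.16th percentile of probe sets, and LUM fell on 1 of its 2 probe sets. The part of these differences in the values of the inhibitors was not tested.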

How the data were processed

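The deposited values are log2 intensities, made by the authors with RMA per the submitters' processing notes, which state no version. RMA puts arrays on a common distribution, so it hides a global change in RNA content and compresses dim differences. After 62 control probe sets were left out, 54613 were tested. By the platform annotation, 41091 probe sets named 1 gene, 1801 several and 11721 none. Entrez identifiers of 41037 matched RefSeq genes and 0 symbols changed.

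Arrays were grouped by title. Differences are mimic minus control from limma 3.58.1 (lmFit, eBayes) in R 4.3.3 over all 6 arrays, adjusted by Benjamini-Hochberg over all probe sets, and each gene was taken from its brightest probe set. In simulated data of 54613 probe sets, 200 were changed. The test recovered 53% of changes of 0.5 and 96% of changes of 1 (log2), and 1.97% of calls were unchanged probe sets. In the real data 13523 probe sets passed, which makes the Benjamini-Hochberg cutoff more lenient, so these shares do not carry over to it. Precision is limited by having 3 arrays per group. The members, the 10 pathway lists and the marker lists were chosen with earlier results of these data known. Named were all members, up to 3 called genes of each list, the largest changes first, and for each member past the threshold the 2 genes with the nearest pattern. Other list genes were picked with their values in view, to fill out small counts or to show a member's partner. Of the lists, 12 genes without a probe set of their own symbol alone were not analysed here. Other settings were a filter on dim probe sets, normalization, centring, variance shrinkage, weights per array, a block for the replicate number, omission of each array, removal of an intensity trend, stricter thresholds and averaging of probe sets. Sequences are RefSeq's, GRCh38.p14. Figures were drawn with matplotlib 3.10.9.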

Additional observations from a re-analysis of the deposited data

How the results depend on the processing

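Of 242 values of the member probe sets under other settings, 238 passed or failed the test as before. No called probe set changed sign; among those not called, CDKN1C at 219533_at reached 0.07, CDKN2A at 207039_at -0.06 and at 209644_x_at -0.02, and CDKN2B at 207530_s_at 0.05, each across 0. Calls changed for CDKN1A, whose rise of 0.34 is under the 1.5-fold minimum; CDKN2A at 211156_at, which passed with array weights (0.22, limma adjusted p = 0.0122) and without control replicate 2 (0.24, limma adjusted p = 0.0379); and CDKN2B at 236313_at, which passed with array weights (0.23, limma adjusted p = 0.0146). The cause was not tested. CDKN2D was 0.37 with its probe sets averaged. Leaving out each array gave 9 to 10 member probe sets, 5 member genes, 71 to 77 list genes and 10266 to 13314 of all probe sets, against 9, 5, 77 and 13523 with all arrays. With the 1.5-fold minimum, which passes fewer by construction, 3590 probe sets and 50 list genes passed. Deviations of same-numbered arrays from their group means correlated with r from -0.107 to 0.084, so the numbers were not taken as pairs. With the number as a replicate block, 9 member probe sets, 5 member genes, 76 list genes and 13372 probe sets passed, and the block changed no member's call but ended that of FAS (limma adjusted p = 0.0538). SKP1, at 0.11 without a call, turned to -0.18 with its probe sets averaged (limma adjusted p = 0.0178). Detection above background was not measured, which limits CDKN2A and CDKN2B most.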
